A study of Mus musculus with 19 samples.

Results

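The self-renewal factors of spermatogonial stem cells described here were 10 genes taken from a list (Gfra1, Ret, Etv5, Bcl6b, Id4, Lhx1, Pou3f1, Nanos2, Eomes and Pax7), out of 26182 genes with a RefSeq curated transcript, of which 21000 were protein-coding. The list was made from the names of the genes and not from a measured value, but with earlier results of these data known. For each gene, every SOX3 ChIP-seq peak was collected that lay at its promoter (within 2 kb of an annotated transcription start site, TSS), elsewhere in its gene body, or within 50 kb of a TSS. This gave 78 peaks in replicate 1 and 52 peaks in replicate 2.

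Spermatogonial stem cells renew themselves in response to glial cell line-derived neurotrophic factor (GDNF), which Sertoli cells secrete. GDNF binds the co-receptor GFRA1, which engages the receptor tyrosine kinase RET, and signals through SRC family kinases, PI3K/AKT and RAS/MAPK. ETV5, BCL6B, LHX1, ID4 and POU3F1 are transcription regulators whose expression in cultured germ cells follows GDNF, NANOS2 is an RNA-binding repressor of differentiation, and EOMES and PAX7 mark small fractions of undifferentiated spermatogonia (uSPG). SOX3 is a SOXB1 family transcription factor made by spermatogonia, including undifferentiated ones.

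The data were 2 replicates of SOX3 ChIP-seq from whole mouse testis at postnatal day 7 (P7), with 2 SOX3 antibodies (SCBT sc-101155 and EMD Millipore AB5772) named for both replicates. The labels give no strain, genotype or treatment for these samples. The methods describe C57BL/6J mice and 2 independent biological replicates, with chromatin taken from the seminiferous tubules of 3 mice at P7 to P8 once the tunica albuginea was off, so that germ cells and the somatic cells of the tubules were both present, and peaks from these cell types cannot be told apart. The study describes SOX3 as specific to uSPG within the testis and shows it in uSPG by immunofluorescence of P7 sections. A peak list holds no expression values, so the cell makeup was not checked with markers. There was no second condition, and with 2 replicates no test between groups was possible; each value below is given for each replicate.

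Replicate 1 yielded 58351 peaks and replicate 2 yielded 38832. Each peak carried a q score (minus 10 times the log10 of the adjusted p-value, kept by the authors above 30) and a log2 ratio of ChIP over input. Median q scores were 41.4 and 39.5. Neither list gives the reads behind a peak. The study's read totals, all and unique, were lower for replicate 1, which had more peaks, than for replicate 2, and q scores were compared only within a replicate. In 98.7% and 98.6% of the peaks, the scores and the ratio were all identical to those of at least 1 other peak of the same list.

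The self-renewal factors differed widely in the CpG content of their promoters, and the sequences are printed here because, over all protein-coding genes, occupancy rose with it, which it did not do in step among these 10. RefSeq promoter sequences (GRCm38.p6, the build of mm10), from 250 bp before to 50 bp after the TSS, were at hand for 7 of the 10 genes (Pax7, Nanos2, Eomes, Lhx1, Id4, Etv5 and Gfra1). Ret, Bcl6b and Pou3f1 had no entry. Each sequence runs 5′ to 3′ along the gene, with CpG sites in capitals. The promoters shown are those of Id4 at chr13:48260866-48261165 (plus strand), the upstream TSS of Etv5 at chr16:22439521-22439820 (minus), Lhx1 at chr11:84525485-84525784 (minus), Pax7 at chr4:139832919-139833218 (minus), Gfra1 at chr19:58455349-58455648 (minus) and Nanos2 at chr7:18987274-18987573 (plus).
Id4: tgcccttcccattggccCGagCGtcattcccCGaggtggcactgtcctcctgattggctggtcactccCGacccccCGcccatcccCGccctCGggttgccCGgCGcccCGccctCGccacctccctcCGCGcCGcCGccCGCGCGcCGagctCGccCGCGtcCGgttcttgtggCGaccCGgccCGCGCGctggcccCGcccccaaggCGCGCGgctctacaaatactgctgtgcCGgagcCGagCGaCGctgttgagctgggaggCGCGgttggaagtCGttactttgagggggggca
Etv5: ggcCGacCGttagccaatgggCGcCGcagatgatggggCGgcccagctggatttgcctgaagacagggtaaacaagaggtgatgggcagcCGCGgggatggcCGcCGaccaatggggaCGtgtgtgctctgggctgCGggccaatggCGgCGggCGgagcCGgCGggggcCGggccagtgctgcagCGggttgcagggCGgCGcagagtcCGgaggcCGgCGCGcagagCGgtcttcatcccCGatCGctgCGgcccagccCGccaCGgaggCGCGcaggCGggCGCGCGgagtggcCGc
Lhx1: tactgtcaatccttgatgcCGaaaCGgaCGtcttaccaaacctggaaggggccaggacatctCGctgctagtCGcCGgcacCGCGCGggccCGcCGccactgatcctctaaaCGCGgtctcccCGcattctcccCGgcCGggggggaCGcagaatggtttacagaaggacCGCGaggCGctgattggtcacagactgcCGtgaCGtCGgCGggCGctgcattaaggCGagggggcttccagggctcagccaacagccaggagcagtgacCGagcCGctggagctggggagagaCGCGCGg
Pax7: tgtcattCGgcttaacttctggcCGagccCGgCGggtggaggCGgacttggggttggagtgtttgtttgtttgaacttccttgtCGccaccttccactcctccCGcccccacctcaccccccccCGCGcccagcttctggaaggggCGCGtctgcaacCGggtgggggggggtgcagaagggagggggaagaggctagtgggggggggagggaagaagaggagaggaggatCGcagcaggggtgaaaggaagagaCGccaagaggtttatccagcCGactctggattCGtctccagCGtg
Gfra1: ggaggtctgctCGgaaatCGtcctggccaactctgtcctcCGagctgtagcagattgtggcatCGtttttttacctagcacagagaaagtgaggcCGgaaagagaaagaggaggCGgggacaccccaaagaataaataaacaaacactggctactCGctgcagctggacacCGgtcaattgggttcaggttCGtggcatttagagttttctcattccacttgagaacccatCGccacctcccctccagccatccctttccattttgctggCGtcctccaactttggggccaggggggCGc
Nanos2: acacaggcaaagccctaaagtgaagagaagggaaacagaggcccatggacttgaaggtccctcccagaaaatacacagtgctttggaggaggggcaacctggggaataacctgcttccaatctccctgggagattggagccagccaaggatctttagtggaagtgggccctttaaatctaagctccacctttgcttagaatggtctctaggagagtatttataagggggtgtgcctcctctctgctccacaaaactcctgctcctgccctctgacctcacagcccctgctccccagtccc
The number of CpG sites in these windows was 39 at Id4, 37 at Etv5, 31 at Lhx1, 17 at Pax7, 12 at Gfra1 and 0 at Nanos2, and 10 at Eomes, which is not shown. The median over the 32851 promoters of the sequence table was 7, with quartiles of 3 and 20. Nanos2 was thus the member without a CpG in its window, and Id4, Etv5 and Lhx1 lay above the upper quartile.

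To ask where SOX3 occupied the promoters of the self-renewal factors, peaks within 2 kb of a TSS were counted in each replicate. SOX3 peaks were found at 9 of 10 promoters in replicate 1 and at 7 of 10 in replicate 2. The 7 promoters with a peak in both replicates were those of the GDNF receptor genes Gfra1 and Ret, of the GDNF-regulated transcription factor genes Etv5, Bcl6b, Id4 and Pou3f1, and of Eomes. Lhx1 and Pax7 had a promoter peak in replicate 1 only, and Nanos2 had none in either replicate. These counts stand beside a high background: 67.8% of the 21000 protein-coding genes had a promoter peak in replicate 1, 60% in replicate 2, 57.9% in both and 30% in neither. A share of 7 of 10 is therefore near the share of all protein-coding genes, and a promoter peak does not set the self-renewal factors apart. When the promoter peaks of the 2 replicates also had to overlap by 50% of a peak, the same 7 genes were left, against 55.8% of protein-coding genes.

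The strength of the promoter peaks separated the members further. When a q score of over 60 was required in each replicate, Etv5, Bcl6b, Id4 and Pou3f1 were left, 4 of 10 genes, against 39.5% of protein-coding genes. Among the genes with a promoter peak in the same replicate, the members had a median percentile of q score of 21.2 in replicate 1 (9 genes) and 37.4 in replicate 2 (7 genes). In replicate 1, 8 of the 9 lay below the median of protein-coding genes (171), and only Etv5 above it. In replicate 2, 4 of the 7 lay below the median (80.1), and Etv5, Bcl6b and Id4 above it. Ranked by log2 ratio instead, the median percentiles were 49.5 and 70.5, so that the low rank of the members held for the q score and not for the ratio.

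**Figure D1:**
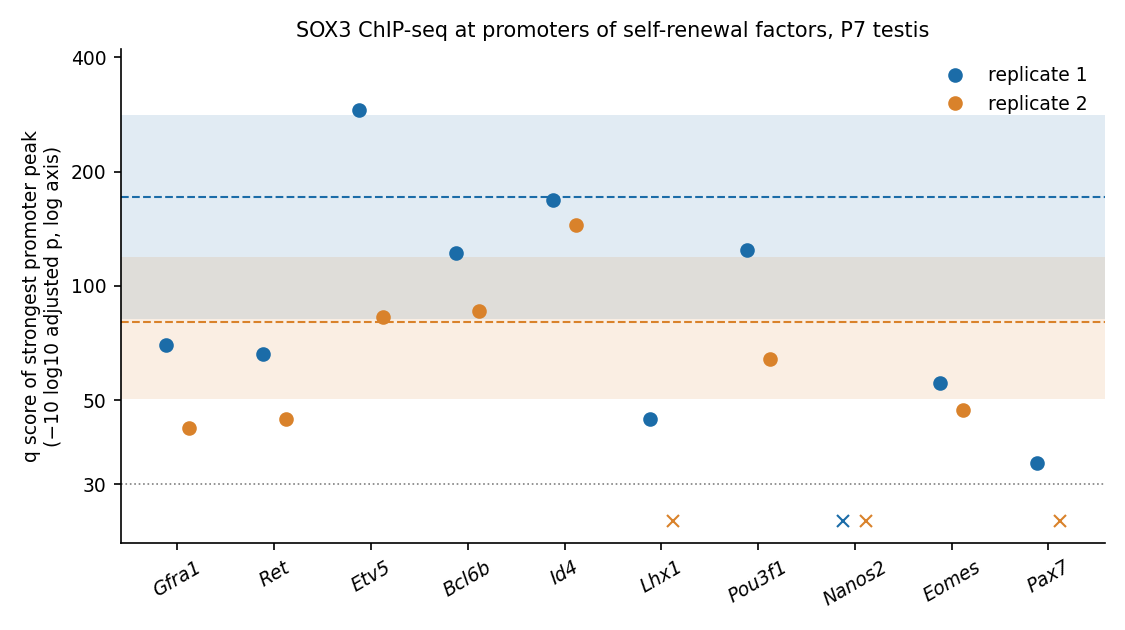
Strongest SOX3 promoter peak of each self-renewal factor, as q score on a log axis, with 1 point per replicate and a cross where a replicate had no promoter peak. Dashed lines and bands are the median and the quartiles of protein-coding genes with a promoter peak in the replicate of that colour, and the dotted line is the authors' minimum of 30; Etv5 (291) is the only member above the replicate 1 median, and Nanos2 has a cross in both replicates.

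Etv5 encodes an ETS family transcription factor needed for stem cell maintenance and had the highest member score in replicate 1. The gene lies at chr16:22381313-22439570 on the minus strand and has 2 curated TSSs. In replicate 1 the peak at chr16:22438189-22441335 had a q score of 291 and a log2 ratio of 3.99. In replicate 2 the peak at chr16:22438920-22441224 had a q score of 82.6 and a log2 ratio of 2.79. The replicate 2 peak lay wholly inside that of replicate 1, and the shared 2305 bp covered a TSS. The percentiles among protein-coding genes were 76.7 and 51.5, so Etv5 was in the upper part of the distribution in replicate 1 and near its middle in replicate 2. Its paralogs Etv1 and Etv4 also had promoter peaks in both replicates, with q scores of 80.3 and 85.4 at Etv1 and of 112 and 88.1 at Etv4.

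Id4 encodes an inhibitor of basic helix-loop-helix factors that marks cells with stem cell activity, and it had the highest member score in replicate 2. The gene lies at chr13:48261116-48266028 on the plus strand. The promoter peak was chr13:48260382-48262958 in replicate 1 (q score 168, log2 ratio 4.14) and chr13:48260800-48262253 in replicate 2 (q score 145, log2 ratio 3.76). The peak midpoints lay in exonic sequence 554 and 410 bp downstream of the TSS, and the replicate 2 peak was contained in the other. The percentiles were 49.2 and 85.2, and Id4 was thus at the median in replicate 1 and well above it in replicate 2. The noncoding gene A330033J07Rik also starts within 2 kb of these peaks, so that the 2 promoters share them. The other Id genes had higher q scores than Id4 in replicate 1 (Id1 266, Id2 338 and Id3 407), whereas in replicate 2 Id3 (193) lay above Id4, and Id1 (96.7) and Id2 (115) lay below it.

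Bcl6b, which encodes a BTB zinc finger repressor, and Pou3f1, which encodes a POU domain factor, had broad promoter peaks of intermediate q score. At Bcl6b (chr11:70224127-70229798, minus strand) the peaks were 5274 bp wide in replicate 1 (chr11:70228221-70233494, q score 122) and 3162 bp wide in replicate 2 (chr11:70228470-70231631, q score 85.7). The wide replicate 1 peak also came within 2 kb of the start sites of the microRNA genes Mir497, Mir497b and Mir195a. The paralog Bcl6 had q scores of 297 and 92, higher than Bcl6b in both replicates. At Pou3f1 (chr4:124657646-124660655, plus strand) the peaks were chr4:124655781-124659299 (q score 124, log2 ratio 4.04) and chr4:124656223-124658515 (q score 64, log2 ratio 3.11), and the noncoding gene Gm2164 starts within 2 kb of both. Of its paralogs, Pou3f2 and Pou3f4 had no promoter peak in either replicate, and Pou3f3 had q scores of 42.1 and 42.4.

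The genes of the GDNF receptor complex had promoter peaks of low q score in both replicates. Ret (chr6:118151748-118197744, minus strand) had q scores of 66.1 (chr6:118196796-118197978, log2 ratio 3.34) and 44.7 (chr6:118197270-118198118, log2 ratio 2.61), and the 709 bp that the peaks shared covered the TSS. Gfra1 (chr19:58235581-58455398, minus strand) had a peak of 2235 bp over its TSS in replicate 1 (chr19:58453400-58455634, q score 69.8, log2 ratio 3.70). In replicate 2 its TSS was not covered: a peak centred in an intron (chr19:58453662-58454214, q score 42.1) lay 1184 bp from it and another upstream (chr19:58456281-58456856, q score 36.5) lay 883 bp from it. The percentiles were 19.7 and 19 at Ret and 21.2 and 16 at Gfra1, which puts both genes among the weaker of the occupied promoters in each replicate. Of the other co-receptor genes, Gfra2 had no promoter peak in either replicate, Gfra3 had q scores of 35.7 and 64.8, and Gfra4 of 123 and 48.3.

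Eomes, which encodes a T-box factor of a rare uSPG fraction, had several small promoter peaks in place of a single broad one. In replicate 1 they were chr9:118476467-118477098 (q score 41.7), upstream of the TSS of this plus-strand gene at 118478189, and chr9:118478848-118479665 (q score 55.6), downstream of it. In replicate 2 there were 3, with q scores of 43.8 (chr9:118476430-118477368), 36.7 (chr9:118477921-118478615) and 47 (chr9:118479435-118480275). The upstream peaks overlapped by 632 bp and the downstream ones by 231 bp, and only the weakest peak, of replicate 2, covered the TSS. Of the paralogs, Tbx21 had a promoter peak in both replicates (q scores 58.4 and 41.9) and Tbr1 in replicate 1 only (66.2).

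Lhx1, Pax7 and Nanos2 were the members without a promoter peak in both replicates. Lhx1 (chr11:84517975-84525534, minus strand), a LIM homeobox gene, had 2 promoter peaks in replicate 1, chr11:84526041-84526813 (q score 44.7, 507 bp upstream and also near the start of Lhx1os) and chr11:84521299-84523571 (q score 40.3, 1963 bp downstream). The nearest replicate 2 peak, chr11:84522895-84523391 (q score 33.6), was intronic and lay inside the second of these, but was 2143 bp from the TSS and thus just outside the promoter. With GENCODE start sites or a promoter of 5 kb either side, Lhx1 counted as occupied in both replicates. Its paralog Lhx5 had q scores of 30 and 36.7.

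Pax7 (chr4:139738081-139832968, minus strand), a paired box gene, had a peak of 480 bp over its TSS in replicate 1 (chr4:139832530-139833009). Its q score of 34.1 was near the minimum, and 1406 peaks of the list, this one included, carried the same values. Replicate 2 had no peak within 11640 bp of the TSS. The paralog Pax3 had peaks in both replicates at similarly low q scores (31.1 and 34). Nanos2 (chr7:18987524-18988962, plus strand) had no peak at its promoter or in its gene body in either replicate. The nearest peaks lay 2547 bp (chr7:18990071-18993017, q score 155) and 2828 bp (chr7:18990352-18991757, q score 81.9) beyond its TSS, both within 2 kb of the start of the neighbouring gene Mypop, so that a promoter of 5 kb would assign them to Nanos2. Of its paralogs, Nanos1 had q scores of 318 and 151, and Nanos3 had a peak in replicate 1 only (42.1).

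To relate occupancy to promoter sequence, the ratio of observed to expected CpG sites was computed from 500 bp before to 500 bp after the most upstream TSS, and a promoter was taken as CpG-rich from a ratio of 0.6. The members were CpG-rich in 7 of 10 cases (Gfra1, Ret, Etv5, Id4, Lhx1, Pou3f1 and Pax7), against 49.3% of protein-coding genes. SOX3 occupied 5 of these 7 promoters in both replicates, against 90% of CpG-rich protein-coding genes. Of the other 3 members, Bcl6b and Eomes (ratios of 0.59 and 0.587, just under the limit) had peaks in both replicates and Nanos2 (0.202) had none, against 26.7% of the remaining protein-coding genes. The share of genes with peaks in both replicates rose with the ratio across all protein-coding genes, from 7.52% below 0.2 and 23.6% between 0.2 and 0.4, the bin of Nanos2, to 95% between 0.8 and 1, the bin of Etv5, Id4, Lhx1 and Pou3f1. As a description, this places Lhx1 (0.84) and Pax7 (0.741) among the few CpG-rich genes without a promoter peak in both replicates, and Nanos2 among the many CpG-poor genes without one. For Lhx1 this did not hold with GENCODE start sites or a promoter of 5 kb either side.

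Within bins of similar CpG ratio, most members also had low q scores. Compared with protein-coding genes of the same bin, an alternative chosen after seeing the data, the median percentile of the members' q scores was 13.8 in replicate 1 and 30.3 in replicate 2. The log2 ratio, by which the members did not rank low over all protein-coding genes, was not ranked within bins. Bcl6b lay above its bin's median in both replicates (percentiles 61.5 and 79.1). Etv5 did so in replicate 1 only (55.8 and 30.3) and Id4 in replicate 2 only (22.4 and 74). Ret (12.7 and 16.5), Gfra1 (13.8 and 13.4) and Pou3f1 (13.6 and 18) lay low in both, and the replicate 1 peaks of Lhx1 (1.94) and Pax7 (1.23) lay near the bottom.

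**Figure D2:**
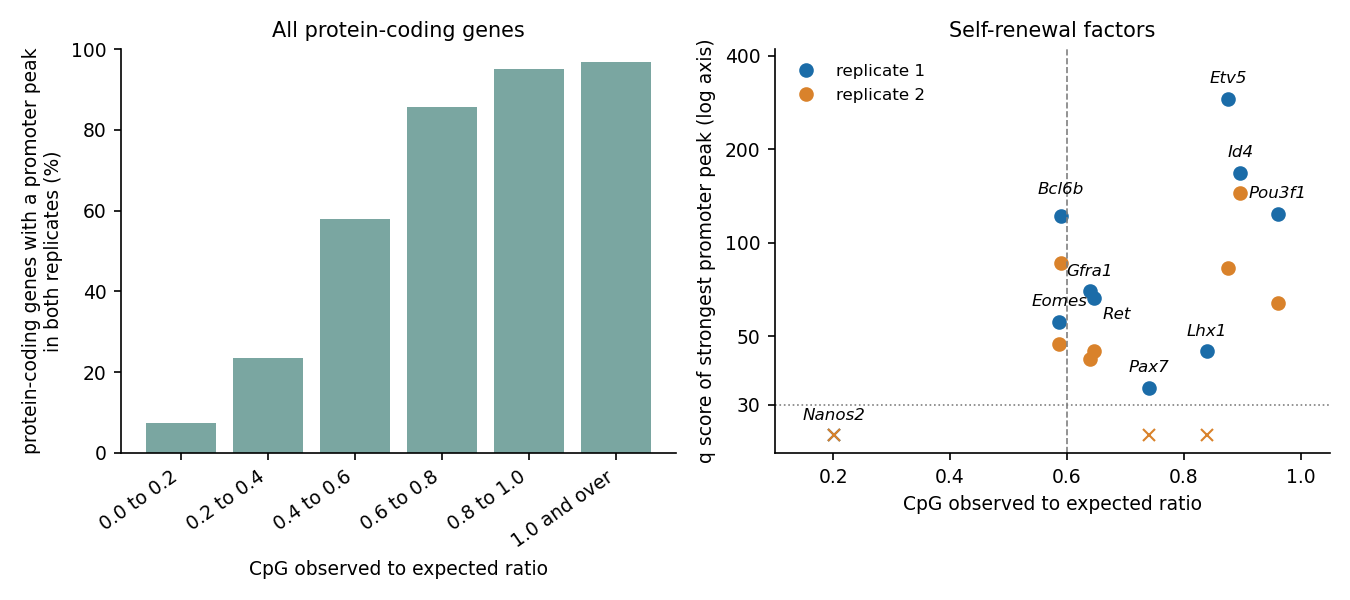
Left, share of protein-coding genes with a SOX3 promoter peak in both replicates (%) by bins of the observed to expected CpG ratio; right, q score of the strongest promoter peak (log axis) of each self-renewal factor against its ratio, with 1 point per replicate and crosses for no promoter peak. The dashed line is the limit of 0.6 and the dotted line the minimum q score of 30; the share rises from 7.52% to 96.9%, and Lhx1 and Pax7 sit right of the dashed line with a cross for replicate 2.

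SOX factors recognise short AT-rich sequences, and ACAATG and ACAAAG were searched on both strands as core forms of the site, with AACAAT as an alternative that can overlap the first. In the 8 promoter windows of the 7 members in the sequence table, ACAATG occurred in 0, against 12.6% of all 32851 promoters, and ACAAAG in 1, against 18.7%. That window belongs to the downstream TSS of Etv5, at chr16:22438319-22438618 on the minus strand, and is shown with the match in capitals.
Etv5 downstream TSS: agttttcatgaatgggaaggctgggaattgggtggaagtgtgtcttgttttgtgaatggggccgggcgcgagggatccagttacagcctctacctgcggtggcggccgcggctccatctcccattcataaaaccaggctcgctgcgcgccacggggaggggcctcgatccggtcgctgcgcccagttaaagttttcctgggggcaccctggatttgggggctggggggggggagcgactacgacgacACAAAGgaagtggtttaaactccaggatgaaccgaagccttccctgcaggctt
AACAAT occurred in none of the 8 windows, against 10.7% of all promoters. In the 300 bp around the midpoint of the strongest promoter peak, ACAATG was in 0 of 9 member peaks of replicate 1 and 0 of 7 of replicate 2, against 5.78% and 5.46% of protein-coding genes with a promoter peak. ACAAAG was in 1 of 9, that of Bcl6b, and in 0 of 7, against 11.6% and 11.7%, and AACAAT was in none, against 4.2% and 3.89%. Windows of this number and size would hold few matches at these shares, and a letter match is a description of the sequence and not a bound site.

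Counted together with the promoter peaks, the members had within 50 kb of a TSS 73 peaks in replicate 1 and 50 in replicate 2, a mean of 61.5 ± 16.3 (SD, n = 2). The median per gene was 6 (2 to 15) and 3 (2 to 12), against medians of 4 and 3 for protein-coding genes. Bcl6b (15 and 12), Nanos2 (13 and 8) and Pou3f1 (10 and 11) had the most, and Gfra1 (2 and 2) and Ret (3 and 2) among the fewest. Leaving out peaks within 2 kb of the start of another gene left 50 and 34. This also left out the members' own promoter peaks at Id4 and Pou3f1 in both replicates, and at Bcl6b and Lhx1 (1 of its 2) in replicate 1.

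The strongest peak within 50 kb lay at the start of a neighbour, and not at the own promoter, for 5 members in replicate 1 and 4 in replicate 2. The share of all protein-coding genes with such a peak was not computed, so these counts cannot be read as a trait of the members. In replicate 1 the own promoter peak was the strongest for 4 members (Gfra1, Ret, Etv5 and Id4), and in replicate 2 for 5, the same 4 and Eomes. At Bcl6b it was the peak at Rnasek and 0610010K14Rik (q scores 379.8 and 153), at Lhx1 that at Aatf (292 and 73.1), at Pou3f1 that at Fhl3 (169 and 69.1) and at Nanos2 that at Irf2bp1 (321 and 128), in both replicates. At Eomes it was the peak at Golga4 in replicate 1 (87.9). The plain count of peaks near Bcl6b, Nanos2 and Pou3f1 thus includes promoters of these other genes.

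**Figure D3:**
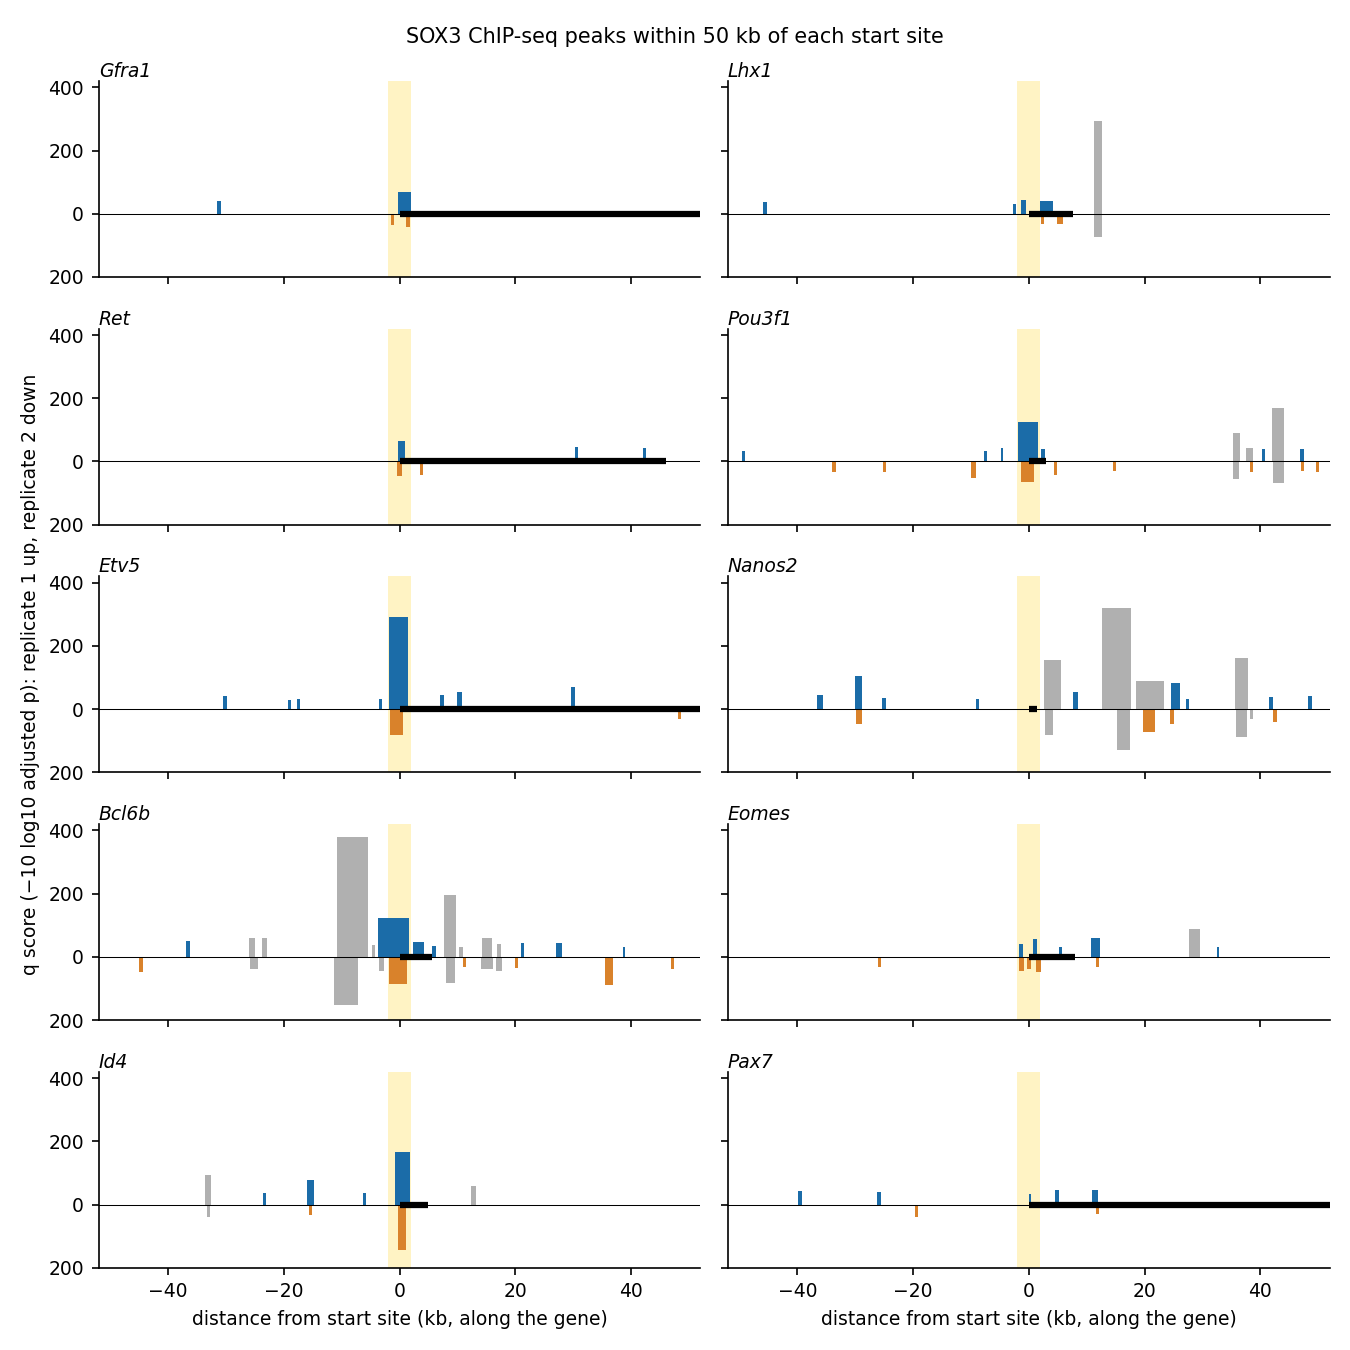
SOX3 ChIP-seq peaks within 50 kb of the start site of each self-renewal factor, drawn along the gene with replicate 1 upward and replicate 2 downward, bar height as q score and bar width as peak width. Yellow marks 2 kb either side of the most upstream start site, the black bar is the gene, and grey bars lie outside the member's promoter within 2 kb of the start of another gene; Etv5, Id4, Bcl6b and Pou3f1 show paired bars in the yellow zone and Nanos2 shows none.

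Gene body peaks outside the promoter were mostly seen in a single replicate. There were 16 in replicate 1 and 7 in replicate 2. Their median q scores were 43.1 and 33.8, against 37.9 and 36.5 for peaks away from TSSs in the whole lists. Gfra1, Ret, Etv5 and Pax7, the members with the longest genes (219.8, 46, 58.3 and 94.9 kb), had at least 1 in both replicates, 4 of 10 members against 26% of protein-coding genes. Most were intronic, such as the 5 peaks of Gfra1 in replicate 1 (q scores of 40.2 to 59.7) and its 2 peaks in replicate 2 (39.5 and 41.9), none of which recurred. By the 50% rule, 0 of the 16 replicate 1 peaks were found in replicate 2, and 2 of the 7 replicate 2 peaks were found in replicate 1, the intronic Lhx1 peak given above and a Pax7 peak in an intron 11640 bp from the TSS (chr4:139820894-139821328, q score 31.2). That Pax7 peak overlapped chr4:139821103-139822011 of replicate 1 (q score 45.5).

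A few peaks away from annotated starts did recur. At Id4, a peak centred 15389 bp upstream of the TSS (chr13:48245151-48246304, q score 77.3, log2 ratio 2.73) contained a replicate 2 peak (chr13:48245382-48245904, q score 33.3, log2 ratio 1.85), inside the noncoding genes A330033J07Rik and Gm36183. At Nanos2, peaks centred 29502 and 29378 bp upstream matched in both directions (chr7:18957442-18958603, q score 106, and chr7:18957612-18958680, q score 47.9), had CpG ratios of 0.932 and 0.897, and lay inside the neighbouring gene Nova2. At Pou3f1, peaks centred 47160 and 47252 bp downstream also matched in both directions (chr4:124704500-124705113, q score 38.9, and chr4:124704647-124705150, q score 31.2). Their CpG ratios were 0.078 and 0.269, and they lay inside Fhl3. At Eomes, a replicate 2 peak centred 11851 bp downstream (chr9:118489732-118490348, q score 32.8) lay in a wider replicate 1 peak (chr9:118488879-118490490, q score 60.7). Further replicate 2 peaks found in replicate 1 were chr4:124695832-124696335 near Pou3f1, and chr7:19007334-19009388 and chr7:19011948-19012662 near Nanos2. The Pou3f1 peak and the first Nanos2 peak lay inside replicate 1 peaks that came within 2 kb of the starts of Utp11 and Irf2bp1. Both are among the replicate 2 peaks counted below as at no TSS. Nova2 and Gm36183 were named after their peaks were seen. Over all member peaks that were at no TSS, 2 of 48 replicate 1 peaks (4.17%) were found in replicate 2 and 9 of 28 replicate 2 peaks (32.1%) in replicate 1, against 11.9% and 28.4% of the peaks away from TSSs in the whole lists. For the members' promoter peaks the counts were 6 of 11 (54.5%) and 7 of 10 (70%), against 59% and 85.4% of peaks at any TSS.

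Genes related to the self-renewal factors were examined by a list grouped by role, of which the 42 genes of 5 roles were counted. The roles were ligands and co-receptors, FGF genes, feedback inhibitors, further factors of undifferentiated spermatogonia (9 genes) and paralogs of the members (15 genes). The total is thus not a share of GDNF and FGF pathway genes alone. Of the 42 genes, 34 (81%) had a promoter peak in both replicates, 3 in 1 replicate and 5 in neither. Of all protein-coding genes 57.9% had one in both and 30% in neither, and of those with a CpG ratio of 0.6 to 0.8, the bin of the list's median (0.692), 85.7% had one in both. A share of 81% is thus near that of the bin that holds the list's median. The ratios of the 42 genes ran from 0.14 (Gfra4) to 1.06 (Foxo1), over bins with shares of 7.52% to 96.9%. A share matched to the ratio of each gene was not computed. Of the 8 ligands and co-receptors 6 had peaks in both, among them Gdnf itself (q scores 245 and 72.1), Artn had them in replicate 1 only and Gfra2 in neither. All 6 FGF ligands and receptors and all 4 feedback inhibitors (Spry1, Spry2, Spry4 and Dusp6) had peaks in both. These counts do not ask that the peaks of the replicates overlap, and at Fgf9 they did not by 50% of a peak. The highest mean q scores of the whole list, which also holds transducers of RET signalling that were not counted, were those of Map2k2, a MAPK kinase gene among those transducers (842 and 368), and of the MAPK phosphatase gene Dusp6 (454 and 192).

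Of the 9 further factors of undifferentiated spermatogonia, 7 had promoter peaks in both replicates, and T and Tspan8 had none. Of the 15 paralogs of the members, 11 had them in both, Nanos3 and Tbr1 in replicate 1 only, and Pou3f2 and Pou3f4 in neither. Among those 11, the peaks of the replicates at Lhx5, Tbx21 and Pax3 did not overlap by 50% of a peak. With such overlap required, the share of all protein-coding genes was 55.8%. These counts, like the 7 of 10 self-renewal factors, stand beside 57.9% of all protein-coding genes and 90% of the CpG-rich ones. Differences between the roles were not tested.

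**Figure D4:**
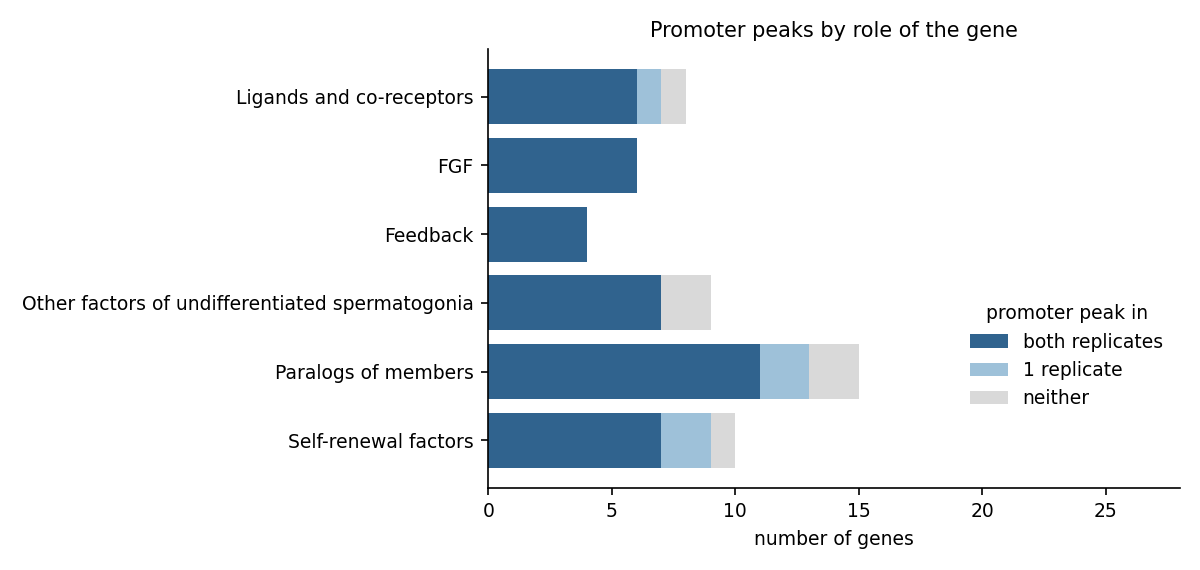
Number of genes of each role with a SOX3 promoter peak in both replicates, in 1 replicate or in neither. The bars for FGF genes (6 of 6) and feedback genes (4 of 4) are wholly dark, and the self-renewal factors have 7, 2 and 1 genes in the 3 shades.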

How the data were processed

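The 2 replicates of SOX3 ChIP-seq and 2 of SOX3 ChIP-nexus from P7 testis were read as peak lists; the 15 other samples of the series were not analysed here. According to the methods, the authors aligned ChIP-seq reads to mm10 with Novoalign, with reads that fit several places assigned at random, removed duplicates with Picard and called peaks per replicate with USeq, keeping those with a score (minus 10 times the log10 of the adjusted p-value, the q score) of more than 30. Since the lists came without column names, the meaning of the deposited score (q score) and of the log2 ratio (ChIP over input, as normalised by the authors) was inferred from the layout of the caller and the values. The deposited ChIP-nexus lists, in the format of MACS2 2.1.1, give fold enrichment and −log10 q-values by the authors. Only their positions were used. Repeated sequence and random placement can add or lose peaks, and the methods describe removing blacklisted regions without saying whether this was done on the deposited lists.

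Gene positions and start sites came from the 45756 RefSeq curated transcripts of GRCm38.p6. A promoter was 2 kb either side of any TSS, and overlap by any base counted. A peak was found in the other replicate when 1 peak there covered at least 50% of it. The strongest promoter peak of a gene was the one with the highest q score, and its percentile is the share of protein-coding genes with a promoter peak in the same replicate that score no higher. Motifs and CpG ratios were read from the genome or the RefSeq promoter table. Python 3.11.15, pandas 2.3.3, numpy 2.4.6 and matplotlib 3.10.9 were used, and the overlap code was tested on simulated data. All members were named, with their paralogs, and of the pathway list those with the 2 highest mean q scores and those with no promoter peak in either replicate; Gdnf, Artn and the feedback genes were named outside this rule, after their values were seen. Other genes were named as neighbours whose start lay within 2 kb of a counted peak. A gene among the listed transducers of RET signalling is not reported here, so that role was not counted. The members and the lists were chosen with earlier results of these data known. No test was made, since there was 1 condition with 2 replicates. Alternatives covered the q score, the promoter width, the annotation, the overlap of replicates, the distance, the ranking measure, the CpG limit and leaving out each replicate.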

Additional observations from a re-analysis of the deposited data

How the results depend on the processing

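Of 40 alternative values of the main results, 32 stayed within the limits set for a change (1.5 times for a count, and the SD between the replicates for the median percentile). A count of 7 members cannot rise by 1.5 times within 10 genes, so for such a count only a fall could register. Where a replicate was left out, a count in both replicates became a count in the 1 left. The number that stayed is therefore not a measure of robustness. A q score above 60 left 4 members with a promoter peak in both replicates, against 39.5% of protein-coding genes. It also left a mean of 17.5 peaks within 50 kb and 0 members with a gene body peak in both replicates. Gfra1 and Ret then kept a promoter peak in replicate 1 only, and Lhx1, Eomes and Pax7 in neither. Windows of 20 kb and 100 kb gave means of 36 and 94 peaks near the members. Ranking promoter peaks by log2 ratio moved the mean of the median percentiles from 29.3 to 60, and the cause was not tested. A CpG limit of 0.75 left 4 CpG-rich members. The share over all genes was not computed for this limit, nor for gene body peaks with a q score above 60. Counted in 1 replicate alone, the members with a gene body peak numbered 7 in replicate 1, against 40.9% of protein-coding genes. In replicate 2 they numbered 5, against 32.2%. With a promoter of 5 kb, Lhx1 and Nanos2 gained a peak in both replicates, and a promoter of 1 kb changed none of the 10 members. Of the protein-coding genes, 12869 had a promoter peak in both replicates at 5 kb and 11831 at 1 kb, against 12162 at 2 kb. GENCODE M21 start sites gave 8 members with a promoter peak in both replicates, Lhx1 being the addition, against 58.5% of protein-coding genes. No paired analysis was possible because no result comes from a test. Lists without reads per peak and only 2 replicates of mixed tissue limit every count, and a missing peak means only that the q score did not pass 30.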

Other observations

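The ChIP-nexus lists, which hold far fewer peaks, had none near the self-renewal factors. Of the 111 regions in replicate 1 and the 19 in replicate 2, 0 lay within 50 kb of a member TSS. The nearest in replicate 1 was 1.25 Mb from Lhx1, and the nearest in replicate 2 was 2.54 Mb from Bcl6b. The lists give only peaks above a minimum, so these values do not measure occupancy below it. The study also lists far fewer unique reads for the ChIP-nexus replicates than for the ChIP-seq ones, so an absent peak says little.

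The score values of the members' peaks of low q score recur across the lists. The promoter peak of Pax7 in replicate 1 shared its scores and ratio with 1406 peaks in all, whereas the promoter peaks of Etv5 and Id4 shared theirs with 8 and 11 in replicate 1 and with 19 and 5 in replicate 2. A q score of 47 with a log2 ratio of 4.50 was found at 3 members in replicate 2, at the Eomes promoter and in the flanks of Bcl6b and Nanos2, and at 187 peaks of the list.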
